A study of Mus musculus with 36 samples.

Results

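The tumors described here grew from 66cl4 cells in immunocompetent BALB/c mice. They are 9 of the 36 tumors in a study of BPTF in mouse mammary cancer, chosen by their labels alone: 6 from cells with BPTF knockdown (BPTF KD) and 3 from control cells. 66cl4 is a metastatic mouse mammary carcinoma line that originated in BALB/c-related mice, so that these tumors are syngeneic with their hosts. Its sister line 67NR, from the same original tumor, and NSG mice, which lack mature T, B and NK cells, make up the rest of the study. The hosts of all 9 tumors were young adult female BALB/cJ mice, injected in the fourth mammary fat pad with 10000 cells and sacrificed 28 days later. BPTF KD cells carried a retroviral short hairpin RNA against Bptf, and control cells a control hairpin in the same vector. The hairpins were in the injected cells, and host tissue in the tumors carried none. The labels name a pair of Bptf hairpins but not which of them a tumor carried, so the hairpins were not compared. RNA came from whole frozen tumor after necrotic areas had been cut away, and therefore held host stroma and leukocytes with the cancer cells. In such tissue, fewer cells of a type and less RNA per cell cannot be told apart.

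BPTF is the largest subunit of NURF, a remodeler that slides nucleosomes with the ATPase SNF2L (Smarca1) and the histone-binding proteins Rbbp4 and Rbbp7. Its bromodomain and PHD finger bind acetylated and methylated histone tails. In tumors of immunocompetent hosts, NK and T cells secrete interferon gamma, which induces chemokines, guanylate-binding proteins and the MHC genes, and the induced chemokines draw in further lymphocytes.

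Bptf itself was lower in every BPTF KD tumor. Its brightest probe set read 9.50, 10.61 and 9.89 on the log2 scale in the 3 controls, and from 8.68 to 9.12 in the 6 BPTF KD tumors. The groups did not overlap, and control 2 was the highest of the 9 tumors. The mean difference was -1.08 (SE 0.20), a 2.12-fold decrease, with p = 0.0119 in the exact two-sided permutation test over 84 splits, the smallest p that test can give, and limma adjusted p = 0.0628 over all genes. The other 3 probe sets of the gene gave differences from -1.84 to -0.14. Of the 11 measured ISWI-related genes, Baz2b, a bromodomain protein of the family that partners ISWI ATPases, was the other member lower at an adjusted p under 0.10, by 0.57 (8.09, 8.88 and 8.64 against 7.74 to 8.10). Rbbp7 differed by -0.28 (adjusted p = 0.109) and Smarca1 by 0.38 (adjusted p = 0.252), and neither passed. No member was called higher.

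Across 12394 genes, limma called 14 genes higher (0.113% of those tested) and 9 lower (0.0726%) in BPTF KD tumors at an adjusted p under 0.05. At an adjusted p under 0.10, which was used for the gene groups below, 540 genes were higher (4.36%) and 816 lower (6.58%), and "rose", "fell" and "called" refer to this threshold from here on unless another is named. At an unadjusted p under 0.01, 508 genes were higher (4.1%) and 766 lower (6.18%), where chance would give about 124 in both directions together. All 6 BPTF KD tumors lay above every control in 468 genes (3.78%) and below every control in 607 genes (4.9%). The p-values measure the spread between these tumors.

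The excess of falling genes depended on how the arrays were centred. The median of an array ran from 7.14 to 7.19 in controls and from 7.10 to 7.14 in BPTF KD tumors. With each array's median subtracted, 697 genes were called higher and 669 lower, so that the falling share went from 60.2% to 49.0%. The median gene then moved from 0.03 to 0.07. Repeating the quantile normalization gave 537 higher and 795 lower. The falling set was therefore described by its members and levels rather than by its excess.

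**Figure D1:**
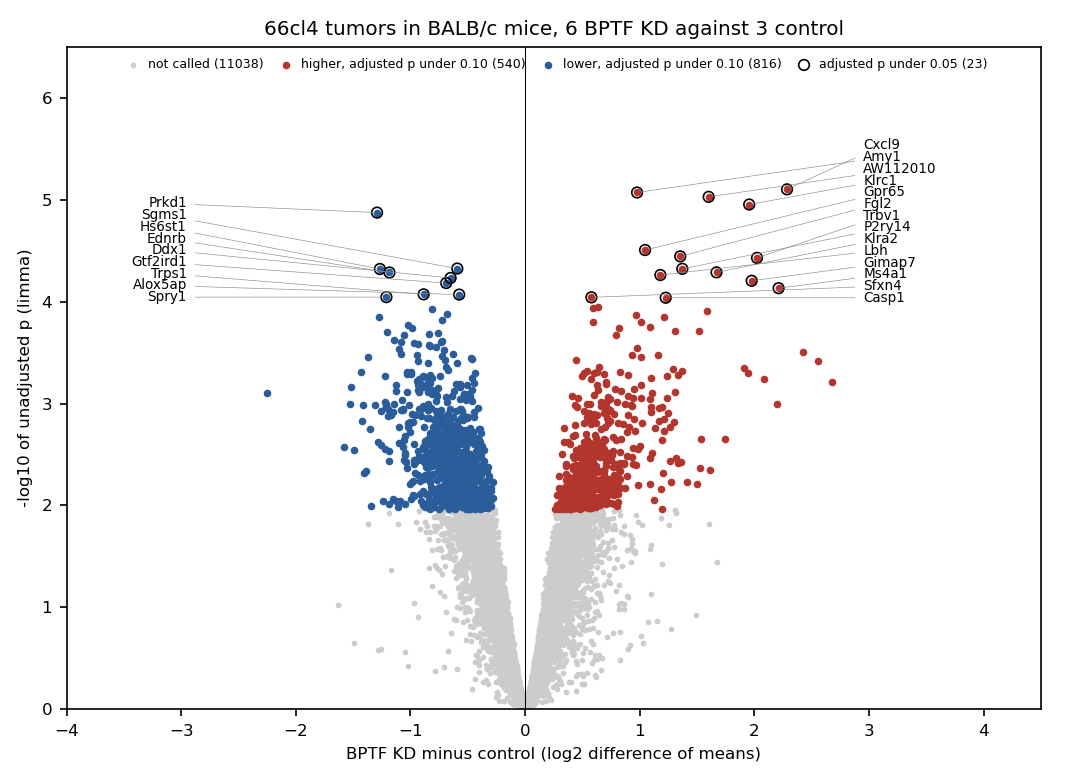
Each point is a gene, with the log2 difference of means (BPTF KD minus control) on the x axis and -log10 of the unadjusted limma p on the y axis. The 540 genes called higher are red and the 816 called lower are blue (adjusted p under 0.10), and the 23 at an adjusted p under 0.05 are ringed and named. The largest increases reach further from 0 than the decreases, while the band of moderate differences holds more genes on the lower side.

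Control 2 stood apart, and its values bear on both sets. Among the 816 falling genes it was the highest of the 3 controls in 696 (85.3%, against 32% of all genes), and control 1 was the lowest in 719 (88.1%, against 34.8%). The median level of the falling genes was 8.67, 9.37 and 9.03 in controls 1, 2 and 3, and between 8.22 and 8.55 in the BPTF KD tumors. The tumors lay in that order in the rising set too, turned around: 8.95, 8.41 and 8.58 in the controls and 9.08 to 9.53 in BPTF KD. The difference between 3′ and 5′ control probe sets of actin, which grows as RNA degrades, was 0.80 in control 2 and 1.26 to 1.56 in the other 8 tumors. It averaged 1.12 ± 0.28 (SD, n = 3) in controls and 1.38 ± 0.10 (SD, n = 6) in BPTF KD tumors (exact permutation p = 0.0476), while the same measure for Gapdh was 0.22 and 0.21.

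**Figure D2:**
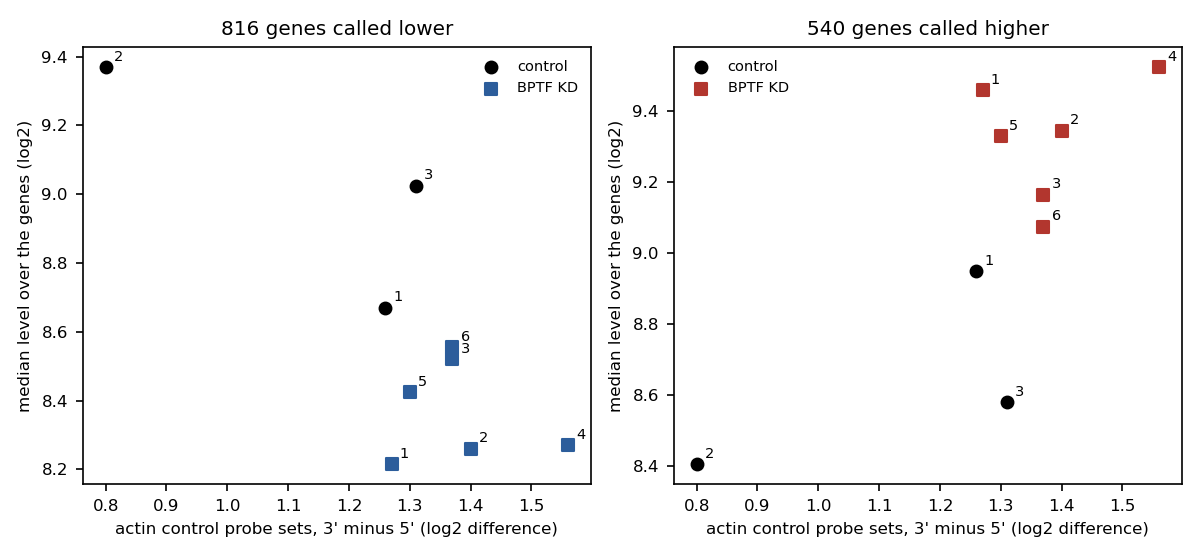
Each point is a tumor, numbered by replicate within its group, with the log2 gap between 3′ and 5′ actin control probe sets on the x axis and the median level over the genes called lower (left) or higher (right) on the y axis (log2). Control 2 lies at 0.80 on the x axis, with the highest median of the falling genes (9.37) and the lowest of the rising genes (8.41). The genes were chosen by the same values, so the gap between groups is a description.

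Leaving out any of several tumors ended nearly all calls. Control 2 was singled out for its place in both sets and its actin value. Without it, 4 genes passed an adjusted p under 0.10 in place of 1356, all of them higher, namely Cxcl9, H2-Aa, H2-Ab1 and H2-Ea (limma adjusted p = 0.0510 for each). Without control 3 no gene passed in either direction (limma, 2256 genes at an unadjusted p under 0.05), while without control 1 there were 1521 higher and 1672 lower. Without BPTF KD tumors 1, 2, 4 and 5 there were 5 and 1, 17 and 16, 18 and 8, and 7 and 3, and without tumors 3 and 6 there were 324 and 526, and 804 and 999. At an unadjusted p under 0.01, 177 genes were higher (1.43%) and 201 lower (1.62%) without it. With the mean actin and Gapdh difference as a covariate the counts were 180 (1.45%) and 205 (1.65%). The median change of the 816 falling genes was -0.62 with all 9 tumors, -0.46 without control 2 and -0.50 with the covariate, and that of the 540 rising genes was 0.58, 0.46 and 0.48. For this reason most gene groups below are given with their count at an unadjusted p under 0.01 in all 9 tumors and without control 2. The part of RNA quality in either set was not tested beyond these fits.

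The genes that rose most were lymphocyte genes and genes that interferon gamma induces. Of 22 measured interferon gamma response genes, 12 rose and none fell (54.5% called higher, beside 4.36% of all genes), with a median difference of 0.80 beside 0.03 for all genes. At an unadjusted p under 0.01 the count was 12 with all tumors and 13 without control 2. Cxcl9, the chemokine that recruits activated T and NK cells through CXCR3, read 10.51, 10.97 and 10.08 in the controls and 12.40 to 13.56 (median 12.53) in BPTF KD tumors. Every BPTF KD tumor exceeded every control by more than 1 log2 unit. The increase was 2.29 (SE 0.29), or 4.87-fold (limma adjusted p = 0.0331).

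Cxcl11, a second ligand of the same receptor, rose by 2.42 (8.68, 7.33 and 7.33 in the controls, 9.14 to 11.31 in BPTF KD). The interferon-inducible GTPases Iigp1, Igtp and Gbp3 rose by 1.58, 1.52 and 1.29. Psmb9, a subunit of the immunoproteasome, rose by 1.16, and Ubd, the ubiquitin-like protein FAT10, by 2.56, from 4.80 to 5.48 in the controls to 6.27 to 8.97. The groups did not overlap in any of these 6 genes.

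The ligand Ifng was itself called higher. Its levels were 3.80, 4.27 and 3.93 in the controls and 4.47 to 6.52 in BPTF KD tumors, spread over 2 log2 units in BPTF KD. The difference was 1.33 (SE 0.36, adjusted p = 0.0786). In its list of interferon gamma, receptor and regulator genes, 6 of 19 rose and none fell (median 0.35), with 6 and 4 at an unadjusted p under 0.01 with all tumors and without control 2. Besides Ifng these included Il18 (0.78), a cytokine that stimulates interferon gamma secretion, its receptor chain Il18r1 (0.96), the interleukin-12 receptor chain Il12rb1 (0.69), Stat4 (0.72), which relays interleukin-12, and Il15 (0.89), which sustains NK cells. Type I interferon-stimulated genes moved less: 2 of 23 rose, Zbp1 (1.32) and Isg20 (0.83), none fell, the median was 0.30, and no member passed p under 0.01 without control 2.

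Antigen presentation genes rose mainly in class II. Of 11 class II genes, 6 rose, 1 fell and the median was 0.70. H2-Aa, the alpha chain of I-A, read 12.39, 13.70 and 12.44 in the controls and 13.45 to 14.26 (median 14.09) in BPTF KD tumors. Control 2 lay among the BPTF KD tumors here, and 5 of 6 BPTF KD tumors were above all controls. The difference was 1.17 with all tumors (adjusted p = 0.0696) and 1.59 without control 2.

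H2-Ab1 (1.26), H2-Ea (1.27) and H2-DMb2 (0.52), the beta chain of I-A, the alpha chain of I-E and a chain of the peptide exchanger, rose as well. Ifi30, a lysosomal thiol reductase that prepares antigens, fell by 0.50 and was below every control in all 6 BPTF KD tumors. Without control 2, 7 of 11 class II genes were higher at an unadjusted p under 0.01, beside 6 with all tumors. In class I, 3 of 14 genes rose: the heavy chain H2-K1 (0.43), the peptide transporter subunit Tap1 (0.94) and Tapbpl (0.83), a tapasin-related peptide editor. The other 3 probe sets of Tap1 gave differences from -0.16 to 0.19.

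NK cell genes followed. Of 21 measured receptors and regulators of NK cells, 8 rose (38.1%, median 0.54) without any that fell, with 7 at an unadjusted p under 0.01 with all tumors and 4 without control 2. Klrc1, the inhibitory receptor NKG2A, which pairs with CD94, read 5.98, 6.11 and 5.93 in the controls and 7.39 to 8.70 (median 7.85) in BPTF KD tumors. The controls lay within 0.2 of each other, and the lowest BPTF KD tumor was over 1 log2 unit above them. The increase was 1.96 (SE 0.26), or 3.88-fold (adjusted p = 0.0331).

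Klra2, a Ly49 receptor, rose by 1.67 (7.64, 7.30 and 8.27 against 8.87 to 9.81, adjusted p = 0.0479). Klrd1, which encodes CD94, rose by 1.27, Klrb1b by 1.24 and Klrk1, the activating receptor NKG2D, by 1.09. All of these receptors lie in the NK gene complex and resemble each other, and the 3 other Klrb1b probe sets gave values from -0.05 to 1.16. Among 19 cytotoxic granule and death ligand genes 4 rose (21.1%), with a median of 0.08 close to that of all genes. The death ligands Fasl (1.53, from 5.34 to 5.69 in the controls to 6.02 to 8.03) and Tnfsf10 (0.98) and the granule membrane protein Nkg7 (1.20) were among them. Of the marker Ncr1, which encodes NKp46, levels were 6.29 to 7.22 in the controls and 7.07 to 8.52 in BPTF KD tumors, with an overlap.

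T cell genes rose in part. Of 22 measured, 8 rose, none fell and all 22 differences were above 0 (median 0.46). Cd3g, a chain of the T cell receptor complex, read 7.36, 7.43 and 6.61 in the controls and 7.82 to 10.15 (median 9.22) in BPTF KD. The increase was 2.08 (SE 0.43, adjusted p = 0.0648), the groups did not overlap, and the BPTF KD tumors themselves were spread over more than 2 log2 units.

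Trbv1, a T cell receptor beta variable segment, rose by 2.02 (adjusted p = 0.0479), Cd3d by 1.17, Cd27, a costimulatory receptor, by 1.10 and Il7r by 0.70. In 66cl4 tumors of NSG mice, which lack mature T cells, Trbv1 differed by 1.225 (SE 0.64, limma adjusted p = 0.697) and Cd3g by -0.07. Whether the Trbv1 probe set reads T cell transcript alone was not tested. The markers Cd4 and Cd3e overlapped between groups: 6.41 to 6.59 against 6.43 to 6.75 for Cd4, and 6.37 to 6.57 against 6.26 to 6.66 for Cd3e. At an unadjusted p under 0.01 the list had 8 members with all tumors and 6 without control 2. Pdcd1, the PD-1 receptor of activated T cells, rose by 1.21 (4.44, 4.87 and 4.49 against 5.10 to 6.57).

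GIMAP genes are small GTPases of lymphocyte survival that lie next to each other in the genome. Of 5 measured, 4 rose (80%), none fell and the median was 1.02. Gimap7 went from 7.14, 6.83 and 6.19 to between 7.72 and 9.18, an increase of 1.98 (adjusted p = 0.0479), Gimap4 rose by 1.11 and Gimap6 by 1.02. At an unadjusted p under 0.01 there were 4 with all tumors and 3 without control 2.

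B lineage genes rose in part. Ms4a1, which encodes CD20, read 4.33, 4.59 and 4.11 in the controls and 5.54 to 7.38 (median 6.63) in BPTF KD tumors. All 6 were well above the controls, and the increase was 2.21 (SE 0.36, 4.63-fold, adjusted p = 0.0493). Jchain, the joining chain of secreted immunoglobulin, had the largest difference of any called gene, 2.68, with controls at 5.66, 4.86 and 3.82 and BPTF KD tumors at 5.83 to 8.52.

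Ighm, the mu heavy chain, rose by 1.24, while its 10 other probe sets ranged from -0.09 to 1.36. In all, 5 of 19 B cell genes rose, the signaling adaptor Blnk fell by 0.68 and the median was 0.20, with 5 and 6 higher at an unadjusted p under 0.01 with all tumors and without control 2. Cd79a, a B cell receptor chain, stayed between 5.64 and 6.10 in all 9 tumors.

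Lymphocyte-recruiting chemokines and their receptors gave 9 rising genes of 18 and none falling (50%, median 0.60), with 9 and 8 at an unadjusted p under 0.01 with all tumors and without control 2. Cxcr6, a receptor of resident NK and T cells, rose by 2.19 (5.88, 6.43 and 5.42 against 7.12 to 9.63), and its ligand Cxcl16 rose by 0.97 (10.14 to 10.50 against 10.84 to 11.61). Xcl1, which NK and CD8 T cells secrete to attract cross-presenting dendritic cells, rose by 1.02. Cxcl13, the B cell attractant of lymphoid follicles, rose by 1.74, with control 2 (10.25) among the BPTF KD tumors (10.21 to 11.67). Of 24 myeloid chemokines and receptors, Ccl17 (0.57) and Cxcl14 (1.18) rose (8.33%, beside 4.36% of all genes) and none fell (median 0.32).

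Inflammasome genes rose too. Of 16 inflammatory caspases and interleukin-1 genes, 6 rose and none fell (37.5%, median 0.52), with 6 and 5 at an unadjusted p under 0.01 with all tumors and without control 2. Casp1, the protease that matures interleukin-1 beta and interleukin-18, read 9.93, 8.89 and 9.58 in the controls and 10.42 to 10.89 in BPTF KD tumors. The BPTF KD tumors were closely grouped, and control 2 was the lowest of the 9. The increase was 1.23 (adjusted p = 0.0493) and 0.94 without control 2. Il1b rose by 1.21 (9.27, 9.52 and 9.29 against 9.89 to 10.92), Casp4 by 0.91 and the adaptor Pycard by 0.78.

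Macrophage genes did not move together. Of 35 measured, 2 rose and 2 fell (5.71% each way, beside 4.36% and 6.58% of all genes), with a median of -0.06. The falling pair were Cd163, a hemoglobin scavenger receptor of resident and alternatively activated macrophages, and Mertk, a receptor for apoptotic cells. Cd163 read 10.55, 11.18 and 11.24 in the controls and 9.51 to 10.66 in BPTF KD, a fall by 1.02 on the log2 scale. Mertk fell by 1.02 as well (7.49, 8.75 and 8.56 against 6.98 to 7.55).

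The rising pair were Fcgr4, an activating Fc receptor (1.34, with 10.27 to 10.83 against 10.98 to 12.51), and the costimulatory ligand Cd86 (0.85). Csf1r, the receptor that macrophages depend on, differed by -0.67 without passing (adjusted p = 0.116), and the marker Adgre1 read 11.33 to 11.52 against 11.28 to 12.01. Lyve1, a hyaluronan receptor of lymphatic endothelium and of a class of resident macrophages, fell from 11.65, 10.78 and 11.29 to between 8.92 and 10.66. That was a fall by 1.52 (SE 0.32, 2.86-fold, adjusted p = 0.0660). Control 2 was the lowest control here, and the fall was larger without it, 1.75.

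A further 7 genes passed an adjusted p under 0.05 upward. AW112010, a transcript induced in activated lymphocytes and myeloid cells, rose by 1.60 (11.01 to 11.16 against 12.22 to 13.32, adjusted p = 0.0331). Fgl2, a fibrinogen-like protein of T cells and macrophages, rose by 1.35, P2ry14, a receptor for UDP-glucose, by 1.37 and Gpr65, a proton-sensing receptor of leukocytes, by 1.05. Lbh, a transcriptional regulator, rose by 1.18 (6.20 to 6.84 against 7.33 to 7.94; its other probe set 0.09), Amy1, salivary amylase, by 0.98 (5.51 to 5.87 against 6.49 to 6.95) and Sfxn4, a mitochondrial sideroflexin, by 0.58 (5.85 to 5.97 against 6.30 to 6.62). Slc17a6, a vesicular glutamate transporter, and Sectm1a, a secreted T cell costimulator, rose by 1.95 and 1.91 at the wider threshold.

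**Figure D3:**
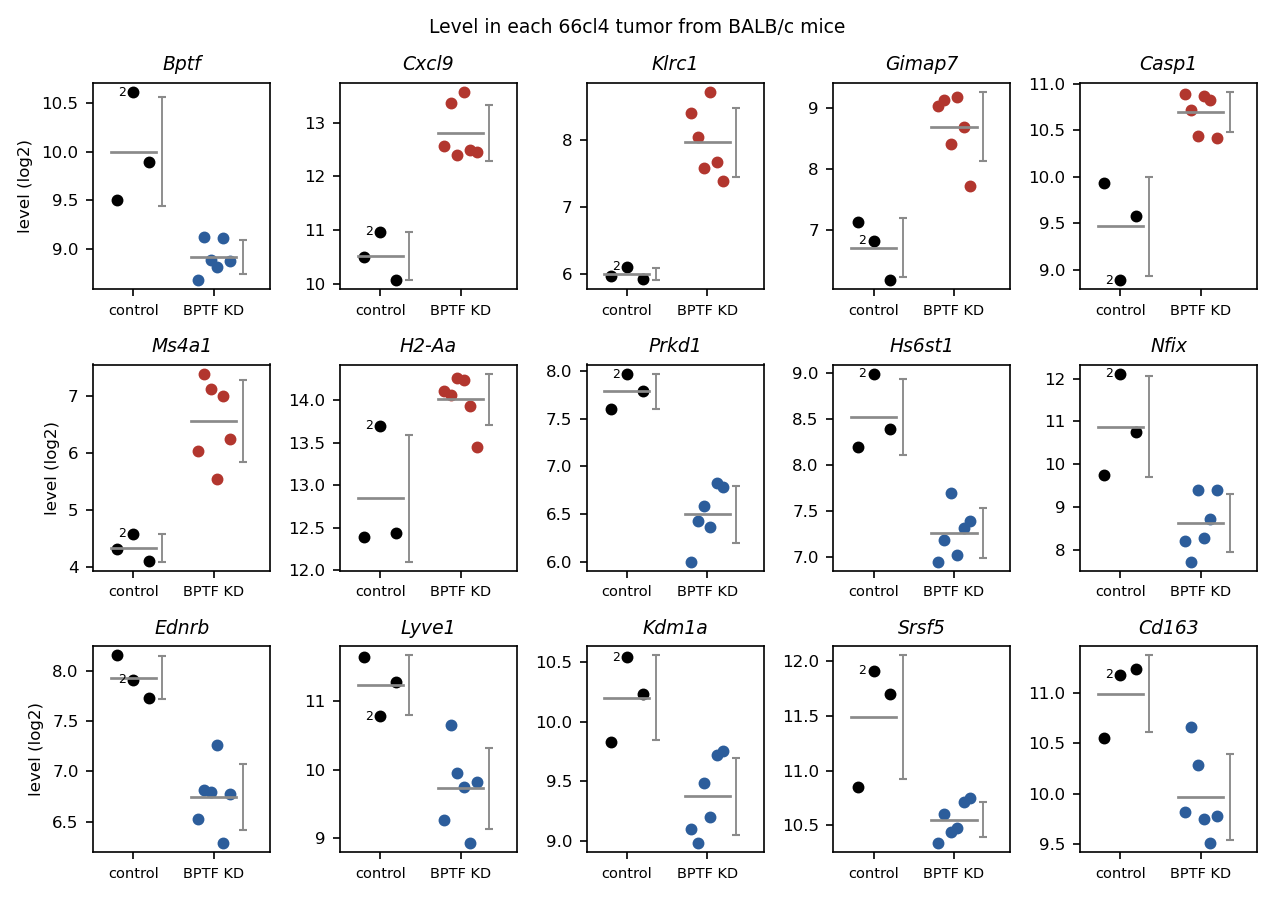
Levels (log2, y axis) of 15 genes in the 3 control tumors (black, control 2 marked) and the 6 BPTF KD tumors (red where the mean is higher, blue where lower), with group means as lines and SD as bars. In Cxcl9, Klrc1, Ms4a1 and Prkd1 the groups lie far apart, while in Bptf, Nfix, Kdm1a and Srsf5 control 2 is the highest tumor.

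Prkd1, among the 9 genes that fell at an adjusted p under 0.05, is protein kinase D1, a diacylglycerol-activated kinase. It read 7.60, 7.97 and 7.79 in the controls and 6.0 to 6.82 (median 6.51) in BPTF KD tumors. The groups lay more than 0.7 apart, and the fall was 2.45-fold, by 1.29 on the log2 scale (SE 0.17, adjusted p = 0.0331). It was 1.20 without control 2. Its relatives Prkd3 and Prkci fell as well, Prkd3 by 0.66 and Prkci, an atypical protein kinase C, by 0.63, so that 3 of 11 measured kinases of the protein kinase C and D families fell and none rose (27.3%, beside 6.58% of all genes), with 3 and 2 at an unadjusted p under 0.01 with all tumors and without control 2.

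Hs6st1, which adds 6-O-sulfate to heparan sulfate, read 8.19, 8.99 and 8.39 in the controls and 6.95 to 7.69 in BPTF KD tumors. It fell by 1.27 (SE 0.20, 2.41-fold, adjusted p = 0.0479) and by 1.03 without control 2. Of 25 genes of heparan sulfate synthesis and modification, 3 fell (12%, beside 6.58% of all genes) and none rose, with a median of 0.06. The 3 were Hs6st1, the epimerase Glce (by 0.82) and the extracellular 6-O-sulfatase Sulf2 (by 0.56). Without control 2, 1 of the 3 was lower at an unadjusted p under 0.01. Among 14 core proteins 1 fell (7.14%, near the 6.58% of all genes), the proteoglycan Gpc4 by 0.53, and Agrn differed by -0.73 without passing (adjusted p = 0.126). No core protein was lower at an unadjusted p under 0.01 without control 2.

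Spry1, the feedback inhibitor of receptor tyrosine kinase signaling, read 11.30, 12.11 and 11.81 in the controls and 10.02 to 10.83 in BPTF KD tumors. It fell by 1.21 (adjusted p = 0.0493), and by 1.02 without control 2. Its relative Spred2 fell by 0.77. The ubiquitin ligase Cbl, which removes activated receptors, fell by 1.53, from 7.64, 9.54 and 8.68 to between 6.70 and 7.60, although a second Cbl probe set differed by only -0.03. The adaptor Gab1 fell by 1.07, and the insulin receptor substrates Irs1 and Irs2 by 0.76 and 0.81. No FGF family member of 18 and no EGF ligand or ErbB receptor of 13 was called in either direction (limma), little removed from the 4.36% and 6.58% of all genes.

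Ednrb, the endothelin B receptor, fell by 1.18, from 8.15, 7.91 and 7.73 to between 6.29 and 7.26 (adjusted p = 0.0479). Control 2 was not the highest control here, and the fall was 1.19 without it. Sgms1, which makes sphingomyelin, fell by 0.59 with the controls within 0.05 of each other (8.18, 8.13 and 8.18) and BPTF KD tumors at 7.41 to 7.69. Ddx1, an RNA helicase, fell by 0.65, Gtf2ird1, a transcription factor, by 0.69 and Alox5ap, which presents arachidonic acid for leukotriene synthesis, by 0.57. Trps1, a GATA-type repressor of mammary epithelium, fell by 0.89 (10.05 to 10.55 against 9.23 to 9.74, adjusted p = 0.0493).

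All 4 members of the nuclear factor I family, transcription factors that bind the same palindrome, fell. Nfix had the largest fall of the 12394 genes, with 9.76, 12.11 and 10.76 in the controls and 7.73 to 9.41 (median 8.51) in BPTF KD tumors. The controls alone were spread over more than 2 log2 units. The fall was by 2.25 on the log2 scale (SE 0.49, 4.76-fold, adjusted p = 0.0667), and by 1.63 without control 2. Nfic fell by 1.44, Nfib by 0.85 and Nfia by 0.85.

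Other probe sets of these genes varied: from -2.31 to -0.10 for Nfix, from -0.60 to -0.22 for Nfic, from -1.08 to 0.03 for Nfib, and from -0.07 to 0.08 for Nfia. The homeodomain factors Prrx2, of limb and stromal mesenchyme, and Irx5 fell by 0.67 and 0.74. Of 32 nuclear factor I and homeodomain genes in the list, 7 fell and none rose (21.9%, median -0.11), with 7 and 4 at an unadjusted p under 0.01 with all tumors and without control 2. No Hox gene of 29 was called, and their median was 0.03.

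Mesenchymal genes had the highest share of falling members of all 72 lists. Of 20 mesenchymal transition factors and markers 7 fell and none rose (35%), with a median of -0.31 that stayed between -0.35 and -0.27 whichever tumor was left out. The transcription factors Tcf4 (E2-2), Snai2 (Slug) and Foxc1 fell by 0.84, 0.61 and 0.86, fibronectin (Fn1) by 0.72 and the matrix protein Tgfbi by 0.52. Tcf4 read 11.30, 11.93 and 11.26 in the controls and 10.19 to 10.85 in BPTF KD tumors, with no overlap. At an unadjusted p under 0.01 there were 6 falling members with all tumors and 2 without control 2.

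Keratins and epithelial adhesion genes did not mirror this: 1 of 27 fell (F11r, a tight junction protein, by 0.57), none rose and the median was 0.03. Among markers of the tumor cells themselves, Krt8 read 12.94 to 13.06 in the controls and 12.64 to 13.48 in BPTF KD tumors, Krt18 differed by -0.81 without passing (adjusted p = 0.217), and Epcam and Cdh1 overlapped between groups (5.0 to 5.91 against 4.75 to 6.66, and 4.42 to 4.88 against 3.93 to 5.24).

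The stroma changed gene by gene. Of 26 fibroblast genes 3 fell (11.5%, beside 6.58% of all genes) and Dcn rose, with a median of -0.01. The 3 were Col6a2, Fn1 and the growth factor receptor Pdgfra, which fell by 0.99. Col6a2, a chain of type VI collagen, read 9.30, 10.75 and 9.64 in the controls and 8.29 to 9.11 in BPTF KD tumors, a fall by 1.21 (2.32-fold, adjusted p = 0.0668). The groups did not overlap, and control 2 stood above the other controls. The matrix and secreted proteins Ecm1, Pcolce, which enhances procollagen processing, and Sparc, which binds collagen, fell by 1.22, 1.02 and 0.91, and the aggrecanases Adamts5 and Adamts1 by 1.06 and 1.06.

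In the other direction Mmp13, a collagenase, rose by 1.53, with controls at 6.0, 6.70 and 7.84 and BPTF KD tumors at 7.64 to 9.25, and the proteoglycan decorin (Dcn) by 0.80. The laminin receptor chains Itgb4 and Itga3 fell by 0.84 and 0.46. In the list of 20 basement membrane genes only Sparc was called, and the median was -0.23. Skeletal muscle and fat were present in the samples unevenly: Acta1 ranged from 10.34 to 12.67 in the controls and from 7.23 to 12.37 in BPTF KD tumors, and Adipoq from 6.27 to 8.67 and from 7.42 to 9.34. No skeletal muscle gene of 30 was called, and their median moved between -0.36 and 0.50 as single tumors were left out.

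Endothelial genes fell in part. Of 30 endothelial and angiogenic genes, 6 fell and none rose (20%, median -0.10), with 6 and 3 at an unadjusted p under 0.01 with all tumors and without control 2. The growth factors Vegfb and Pgf fell by 0.48 and 0.42, Plvap, the diaphragm protein of fenestrated vessels, by 0.59, Pecam1 by 0.69 and the lymphatic growth factor Vegfc by 0.84, and Lyve1 was the largest. Nrp2, a coreceptor for VEGF-C in the semaphorin list, fell by 0.98. Pgf was the tightest of these, with controls at 8.16 to 8.52 and BPTF KD tumors at 7.85 to 8.11. The markers Cdh5 and Kdr overlapped between groups (7.44 to 8.40 against 7.13 to 7.99, and 6.70 to 7.51 against 6.65 to 7.01).

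Nuclear and RNA-processing genes held the largest counts of falling members of any list, and most of these were lost without control 2, while the list medians moved less. The loss was not particular to these lists. Over all genes, the share lower at an unadjusted p under 0.01 went from 6.18% with all tumors to 1.62% without control 2. Of 63 histone and chromatin modifiers, 15 fell and none rose (23.8%, median -0.23). They included the lysine demethylases Kdm1a (-0.83) and Kdm5a (-0.57), the acetyltransferase Kat6b (-0.83), the bromodomain protein Brd3 (-0.78), and the remodeler ATPases Chd8 (-0.73) and Smarca2 (-0.52). Kdm1a read 9.83, 10.54 and 10.23 in the controls and 8.98 to 9.75 in BPTF KD tumors. The groups did not overlap, but the lowest control and the highest BPTF KD tumor were close. Without control 2, 2 of the 63 were lower at an unadjusted p under 0.01, beside 14 with all tumors, and the median was -0.19. Gatad2b, of the NuRD complex, and Zmynd8, a chromatin reader, fell by 1.26 and 1.09, and Runx1t1, a corepressor, by 1.20.

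Of 50 splicing factors, 12 fell (24%) and Snrpb2, of the U2 particle, rose by 0.50 (median -0.24). Srsf5 read 10.85, 11.91 and 11.70 in the controls and 10.34 to 10.75 in BPTF KD tumors and fell by 0.93. Hnrnpa1 fell by 0.69, Luc7l2, of the U1 particle, by 1.02, Sf3a2, of the U2 particle, by 1.28 and Prpf8, the core of the spliceosome, by 0.97. The other probe set of Sf3a2 differed by -0.09. Without control 2, 4 were lower at an unadjusted p under 0.01, beside 12 with all tumors, and the median was -0.13.

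Among 41 RNA helicases and RNA processing genes, 6 fell and 2 rose. Ddx24 and Dhx8 fell by 0.77 and 0.69 and Ddx52 and the exosome subunit Exosc9 rose by 0.69 and 0.75, and 1 in place of 6 was lower at an unadjusted p under 0.01 without control 2. In ribosome biogenesis 4 of 46 fell (8.7%, near the 6.58% of all genes) and none rose. The nucleolar proteins Ncl (-1.0) and Utp4 (-0.79) were among them. None of the 46 passed an unadjusted p under 0.01 without control 2. None of 42 ribosomal proteins was called, and their median was 0.02.

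Wnt and TGF-beta pathway genes had falling shares closer to that of all genes. In the Wnt list 5 of 46 fell and none rose (10.9%, median -0.05), with 4 and 2 at an unadjusted p under 0.01 with all tumors and without control 2: the kinase Gsk3b by 1.15, the scaffold and feedback target Axin2 by 0.61 and Apc by 0.73 were among them. Gsk3b read 7.76, 8.95 and 8.08 in the controls and 6.69 to 7.55 in BPTF KD tumors. In the TGF-beta and BMP list 5 of 47 fell and the endothelial receptor Acvrl1 rose by 0.47 (median -0.12), with the receptors Bmpr2 and Tgfbr2 down by 0.68 and 0.69 and the ligand Tgfb1 by 0.70. The other 2 probe sets of Tgfbr2 differed by -0.08 and -0.02.

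Of 63 cell cycle and DNA replication genes 6 fell (9.52%) and 2 rose (3.17%), shares near those of all genes (6.58% and 4.36%), with a median of -0.02. Without control 2, 3 were lower at an unadjusted p under 0.01 and none higher, beside 6 and 2 with all tumors. Rrm2, a subunit of ribonucleotide reductase, fell by 0.70, E2f8 by 1.17, the licensing factor Cdt1 by 0.77 and the mitotic kinase Aurkb by 0.72, while Orc6, of the origin recognition complex, and Gins1 rose by 0.59 and 0.60. In DNA repair 4 of 42 fell, among them Brca2 (-0.82) and the checkpoint kinase Chek2 (-0.51), and none rose (9.52% lower). Without control 2 none of the 42 was lower at an unadjusted p under 0.01, beside 3 with all tumors. Of 30 p53 target and apoptosis genes 4 fell (13.3%, beside 6.58% of all genes) and 3 rose (10%, beside 4.36%), with a median of 0.07. At an unadjusted p under 0.01 there were 3 lower and 3 higher with all tumors, and none either way without control 2. The p53 regulators Mdm2 and Mdm4 fell by 0.60 and 0.94 and the apoptosis activator Bcl2l11 by 0.66, while the death receptor Fas rose by 0.82.

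Mitochondrial genes leaned upward by small amounts. Of 62 mitochondrial ribosome genes 6 rose and Mrpl28 fell by 0.38 (9.68% higher, beside 4.36% of all genes, median 0.22). Of 71 respiratory chain genes 4 rose (5.63%) and 2 fell (2.82%, beside 6.58% of all genes), with a median of 0.16. Mrps5, Mrpl35 and Mrps28 rose by 0.54, 0.58 and 0.50, and the complex I subunit Ndufb3 by 0.48. Outside these lists Cox15, which makes heme A for complex IV, fell by 1.21, with other probe sets from -1.39 to -0.12. No member of either list passed an unadjusted p under 0.01 without control 2.

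Several of the largest falls belonged to no single theme. Myo10, a filopodial myosin, fell by 1.43, Gstm2, a glutathione transferase, by 1.42, the extracellular chaperone Clu by 1.39, the lysosomal channel Tpcn1 by 1.37 and Wasf1, an actin nucleation promoter, by 1.31. Ldah, a lipid droplet hydrolase, fell by 1.28, Glg1, a Golgi glycoprotein that binds E-selectin, by 1.22, the taurine transporter Slc6a6 by 1.22 and the endocytic adaptor Dab2 by 1.21. Clu read 11.36, 12.34 and 11.53 in the controls and 9.31 to 11.12 in BPTF KD tumors, and its 3 other probe sets gave -1.48 to -1.32. Tpcn1 and Slc6a6 had other probe sets nearer to 0, from -0.27 to -0.06 and from -0.14 to -0.10.

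**Figure D4:**
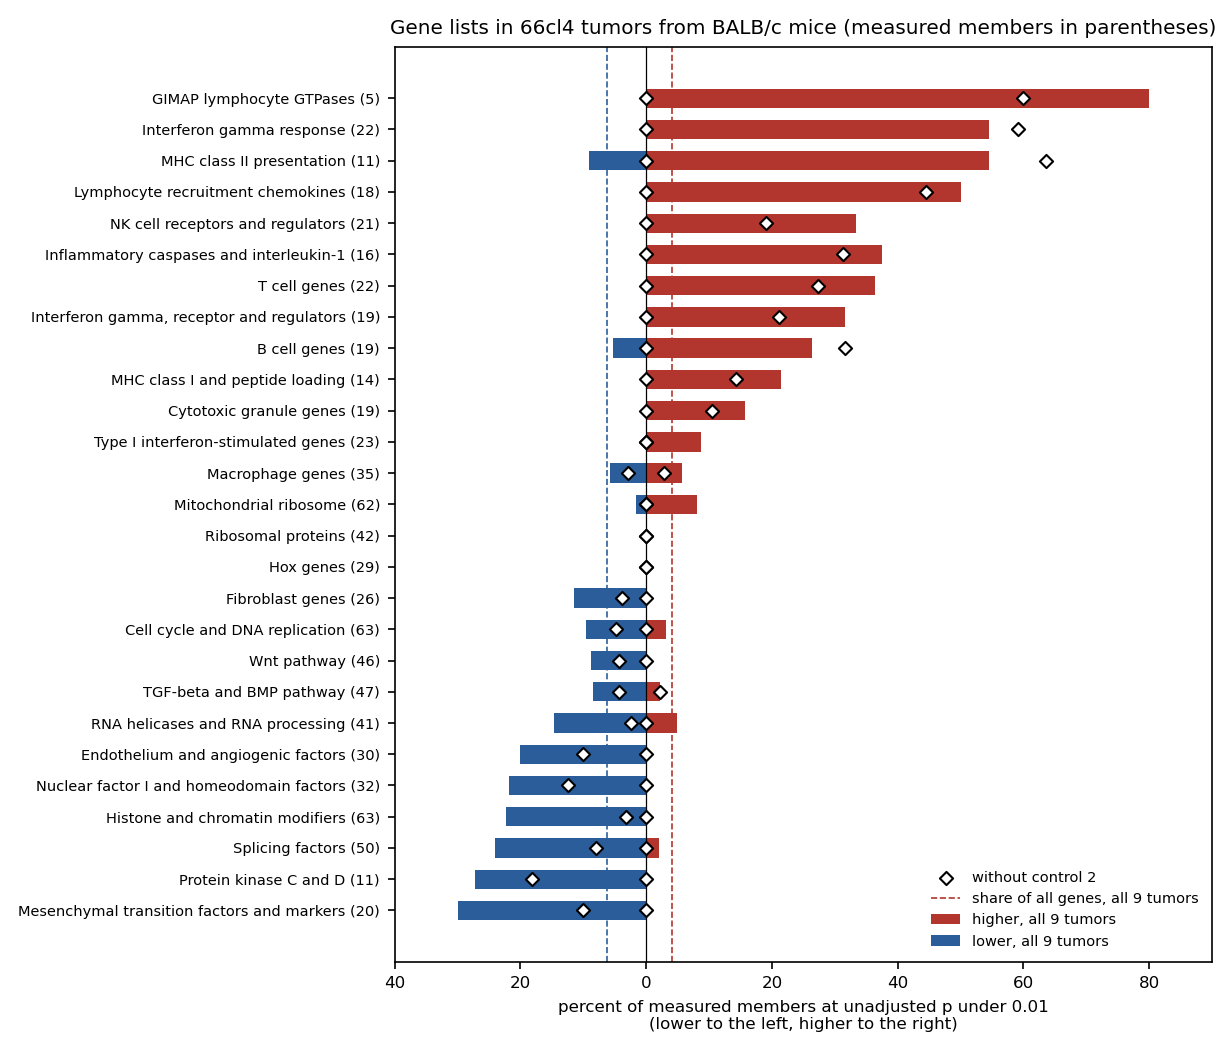
Share of the measured members of 27 gene lists that were higher (red, to the right) or lower (blue, to the left) at an unadjusted p under 0.01 with all 9 tumors, in percent, with the same shares without control 2 as open diamonds and the shares of all genes as dashed lines (4.1% higher, 6.18% lower). The dashed lines are for all 9 tumors. The shares of all genes without control 2, 1.43% higher and 1.62% lower, are not drawn. Without control 2, 13 of 22 interferon gamma response genes and 8 of 18 lymphocyte chemokine genes are higher, while chromatin modifiers go from 14 to 2 of 63 and splicing factors from 12 to 4 of 50.

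In all, 72 gene lists were counted, with 1796 different genes measured. More members rose than fell in 21 lists, more fell than rose in 36, the counts were equal in 5 and 10 had no member called. The lists held 113 of the 540 rising and 144 of the 816 falling genes, 6.29% and 8.02% of the listed genes, beside 4.36% and 6.58% of all genes. Most of the falling set, 672 genes, was thus in none of the lists.

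Other probe sets of the same genes, which the choice of the brightest probe set left out, mostly had the same sign. The rising genes had 316 further probe sets, of which 275 (87.0%) were above 0, and the falling genes had 844, of which 740 (87.7%) were below 0, beside 50% of all 7999 such probe sets. Single genes named above had another probe set near 0 or of opposite sign, among them Gtf2ird1 (0.01), Spred2 (0.12), Axin2 (0.10), Glce (0.22), F11r (0.01), Prkci (-0.08) and Pdgfra (-0.07). Probe sets of 1 gene come from the same RNA samples and are no replicates of the tumors.

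Promoters were compared between the rising and falling genes because the CG content of a promoter is a property that the calls did not use. RefSeq promoter windows (GRCm38.p6), of which the 250 bases before the start site were read, were found for 433 of the 540 rising genes (80.2%) and 663 of the 816 falling genes (81.2%). The median window of a rising gene held 13 CG dinucleotides and that of a falling gene 18, and 10 or more CG stood in 59.6% and 80.1% of the windows. Over all measured genes, of which 79.8% had a window, the median was 14 and the share 63.3%, so that the rising genes lay close to the measured genes and the falling genes above them. Over all 27025 windows of the table, measured or not, they were 6 and 38.2%. Among genes of upper middle control level (between the median and the 75th percentile), where over 80% of both sets had a window, the medians were 14 and 18, beside 17 for all measured genes of that level. At that level the falling genes (18) were thus close to other genes (17), and the rising genes (14) lay below them. In each other level class fewer than 80% of at least 1 of the sets had a window. In the class just below, where 76.2% of rising and 77.9% of falling genes had a window, the medians were 7.5 and 17. All measured genes of that class had 13, so that the falling genes lay above them there. In the highest class (78.5% and 81.3%) the medians were 15 and 18.5, beside 17. In the lowest class only 5 falling genes had a window, and the sets were not compared. The distance of the falling genes from other genes thus varied with level.

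Windows of a pair of rising and a pair of falling genes, each called at an adjusted p under 0.05, are shown 5′ to 3′ on the gene's strand with every CG in capitals, to show how widely the CG count of single windows varied. Cxcl9 (chr5:92328080-92328329, minus strand) held 3 and Klrc1 (chr6:129678974-129679223, minus strand) 1. Prkd1 (chr12:50649250-50649499, minus strand) held 30 and Hs6st1 (chr1:36068150-36068399, plus strand) 37. The windows of Fgl2, a rising gene, and Spry1, a falling gene, are not printed and held 10 and 23. The set medians of 13 and 18 lie far closer together than the printed windows.
Cxcl9: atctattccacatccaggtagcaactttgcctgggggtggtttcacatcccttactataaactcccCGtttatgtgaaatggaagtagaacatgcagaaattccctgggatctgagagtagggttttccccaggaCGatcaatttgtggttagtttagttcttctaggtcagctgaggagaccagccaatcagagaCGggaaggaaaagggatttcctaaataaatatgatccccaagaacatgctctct
Klrc1: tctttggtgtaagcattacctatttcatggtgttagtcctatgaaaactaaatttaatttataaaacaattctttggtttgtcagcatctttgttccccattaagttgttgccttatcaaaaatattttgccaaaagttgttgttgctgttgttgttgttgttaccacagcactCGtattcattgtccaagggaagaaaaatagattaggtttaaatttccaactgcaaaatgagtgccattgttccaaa
Prkd1: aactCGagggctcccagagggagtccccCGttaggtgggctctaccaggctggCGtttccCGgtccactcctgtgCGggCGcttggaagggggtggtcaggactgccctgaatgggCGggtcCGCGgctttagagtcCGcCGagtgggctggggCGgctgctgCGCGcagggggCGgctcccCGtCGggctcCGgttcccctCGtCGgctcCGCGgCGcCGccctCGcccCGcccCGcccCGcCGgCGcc
Hs6st1: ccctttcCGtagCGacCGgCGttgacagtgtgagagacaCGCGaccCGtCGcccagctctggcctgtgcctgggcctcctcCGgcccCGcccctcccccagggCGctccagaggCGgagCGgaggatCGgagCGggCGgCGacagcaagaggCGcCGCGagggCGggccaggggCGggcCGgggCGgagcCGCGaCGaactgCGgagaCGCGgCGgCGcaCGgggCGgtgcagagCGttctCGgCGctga
The interferon-stimulated response motif GAAANNGAAA, searched on both strands, stood in 6% of rising and 2.26% of falling windows, beside 2.79% of measured genes and 3.04% of all windows. The gamma-activated motif TTCNNNGAA differed less, with 8.31% and 5.58%, beside 6.05% and 7.18%. The nuclear factor I half-site TTGGCA, searched on both strands, stood in 8.31% and 9.05%, beside 11% and 12.5%. These are matches of letters in a short window.

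Tumors labelled BPTF KD and control were also at hand from 66cl4 cells in NSG mice and from 67NR cells in BALB/c mice, each with its own 3 controls and 6 BPTF KD tumors. The targeted gene was not called lower in either, on its brightest probe set: Bptf differed by -0.33 (SE 0.12, limma adjusted p = 0.584) in NSG mice and by -0.05 (SE 0.45, limma adjusted p = 0.985) in 67NR tumors. The difference in Bptf from 66cl4 tumors of BALB/c mice did not pass between hosts (-0.75, SE 0.25, limma adjusted p = 0.375) or between lines (-1.03, SE 0.52, limma adjusted p = 0.529). Neither gave a gene at an adjusted p under 0.10 (limma, 952 and 961 genes at an unadjusted p under 0.05). Cxcl9 differed by 2.29 in 66cl4 tumors of BALB/c mice, by 0.08 in NSG mice and by 2.37 in 67NR tumors. Klrc1 differed by 1.96, 0.03 and 2.28. Over the interferon gamma response list the medians were 0.80, -0.01 and 1.79, over T cell genes 0.46, 0.19 and 1.56, and over NK cell genes 0.54, 0.07 and 1.04.

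The difference between hosts was tested as an interaction over the 18 66cl4 tumors, and no gene passed an adjusted p under 0.05 (limma, smallest 0.188, 1476 genes at an unadjusted p under 0.05). The smallest adjusted p was that of Klrc1, whose effects differed by 1.93 (SE 0.33) between hosts. The effects on Cxcl9 differed by 2.21 (SE 0.46, limma adjusted p = 0.263). Because NSG mice lack mature T, B and NK cells, genes of those cells could change little there. For such genes, neither this test nor the medians above can separate a smaller knockdown effect from the absence of the cells. Between lines in BALB/c mice no gene passed either (smallest adjusted p = 0.485, 1195 genes at an unadjusted p under 0.05). Cxcl9 differed between lines by -0.08 (SE 0.60) and Klrc1 by -0.32 (SE 0.99), intervals too wide to call the effects alike.

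Genes chosen for a large difference in 1 comparison tend to lie nearer to 0 in others, so the values of the falling genes are given as a description. Prkd1 differed by -1.29, -0.64 and -0.76, Hs6st1 by -1.27, -0.28 and -0.12, Nfix by -2.25, -0.06 and -0.21, Spry1 by -1.21, -0.17 and -0.02 and Ednrb by -1.18, -0.30 and -1.52. None of these 5 passed an adjusted p under 0.05 in the test between hosts or between lines. Over the 816 falling genes the median was -0.09 in NSG mice and -0.10 in 67NR tumors, with 602 (73.8%) and 515 (63.1%) below 0, beside 46.8% and 50.7% of all genes. Over the 540 rising genes the medians were 0.04 and 0.12, with 333 (61.7%) and 322 (59.6%) above 0, beside 53.2% and 49.3% of all genes. Inflammasome genes and mitochondrial ribosome genes had medians of 0.52 and 0.22 in 66cl4 tumors of BALB/c mice, -0.01 and -0.05 in NSG mice, and 0.30 and -0.06 in 67NR tumors.

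**Figure D5:**
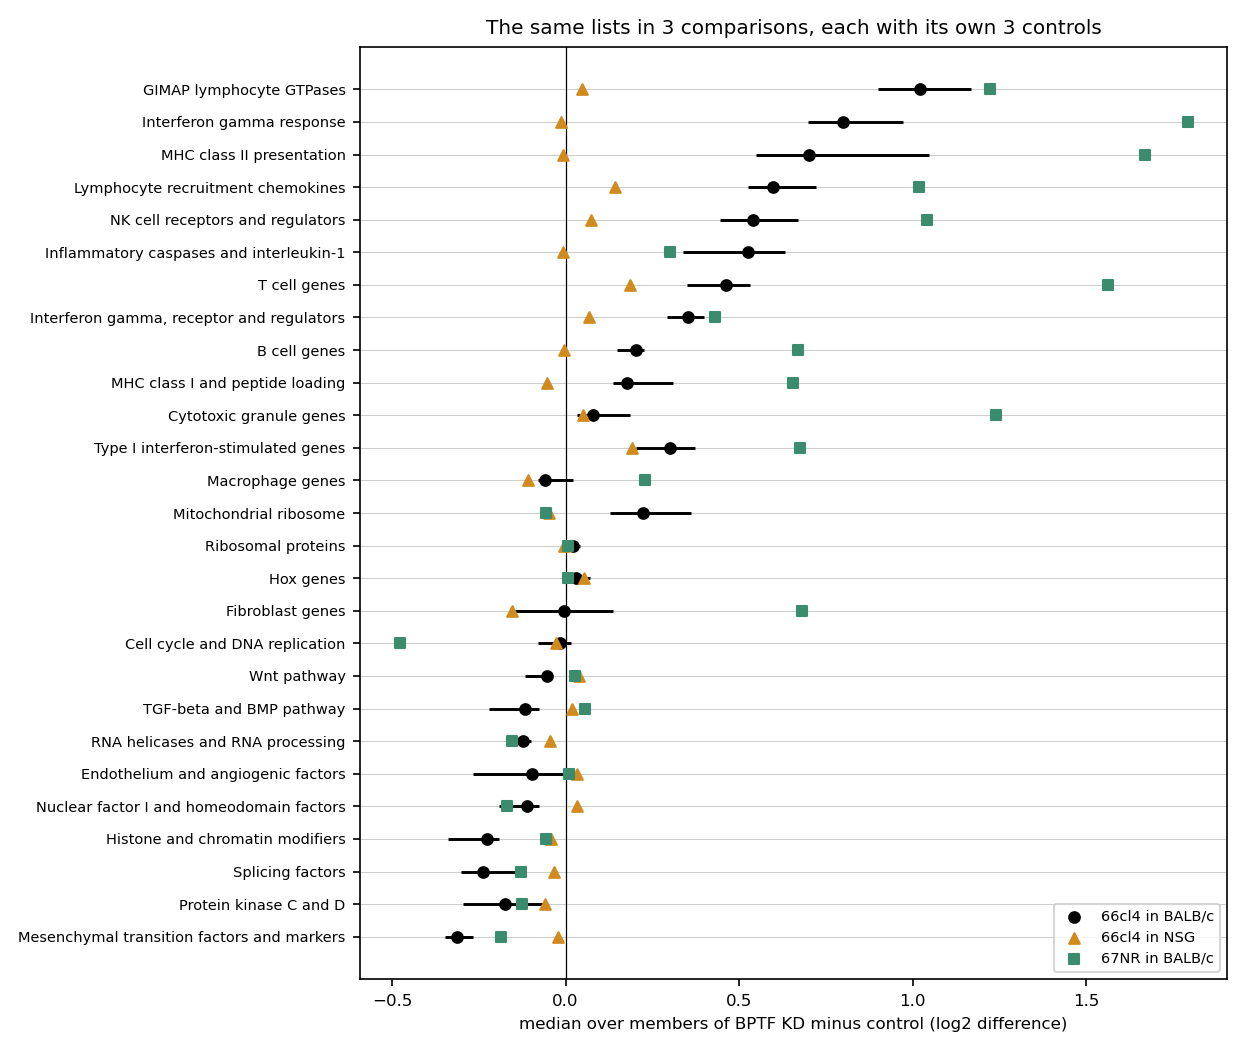
Median over list members of the log2 difference BPTF KD minus control (x axis) for the same 27 lists in 66cl4 tumors of BALB/c mice (circles, with the range over leaving out each of the 9 tumors as a line), 66cl4 tumors of NSG mice (triangles) and 67NR tumors of BALB/c mice (squares). The lymphocyte, interferon and MHC lists lie to the right of 0 in both BALB/c comparisons and further left in NSG mice, with interferon gamma response at 0.80, 1.79 and -0.01.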

How the data were processed

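Whole-tumor RNA was hybridized to Affymetrix mouse arrays, 1 tumor per array. The deposited values are log2 expression per probe set that the authors made with RMA (background correction, quantile normalization and probe summary), per the submitters' processing notes. The version and the genome build are not given in the sources used here. Groups came from the sample titles. Of 22690 probe sets, 20393 had 1 gene symbol, 691 several and 1606 none, and 20364 symbols were updated by Entrez identifier. The probe set with the highest mean stood for each of 12394 genes. BPTF KD and control tumors were compared with limma 3.58.1 (R 4.3.3) and Benjamini-Hochberg adjustment over all genes, without a block, and effects between hosts or lines as interactions. The number of arrays limits the precision. Summaries used Python 3.11.15, and the fit was checked on simulated data. Named were all genes at an adjusted p under 0.05, the 20 largest increases and 40 largest decreases with groups apart, up to 6 members of each list by p, and BPTF partners. Snrpb2, Exosc9 and Gins1, outside that rule, were named after their values were seen. Members and lists were chosen with earlier results of these data known. Alternatives were another pool of samples, test, filter, normalization, scaling, block, probe set choice, array weights, an RNA integrity covariate and leaving out each tumor.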

Additional observations from a re-analysis of the deposited data

Results flagged for a closer look

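In 10 of 265 groups of 6 BPTF KD tumors tested, over named genes and list means, 1 tumor lay far from the other 5, and chance alone flags about 1 group in 20. BPTF KD tumor 4 was high for Amy1 (6.95, others 6.49 to 6.63) and Exosc9 (10.69, others 10.07 to 10.30). BPTF KD tumor 3 was high for Irx5 (9.17, others 8.59 to 8.80) and in the mean of semaphorins, plexins and ephrins (6.90, others 6.79 to 6.82). BPTF KD tumor 1 was low for Tcf4 (10.19, others 10.63 to 10.85) and Kat6b (7.43, others 7.84 to 8.06). BPTF KD tumor 6 was high for Ncl (11.59, others 10.54 to 10.88) and low in the mean of the class II genes (10.35, others 10.81 to 10.95). The mean of collagen crosslinking genes was high in BPTF KD tumor 5 (9.32, others 8.91 to 9.01), and that of keratins and epithelial adhesion genes in BPTF KD tumor 2 (6.26, others 5.97 to 6.06).

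Probe sets without a gene symbol entered no comparison above. Of 1555 such probe sets, 81 were lower (5.21%) and 35 higher (2.25%) in BPTF KD tumors at a limma adjusted p under 0.10, beside 6.88% and 3.79% of all probe sets.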

How the results depend on the processing

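Counts are given as higher and lower genes, at an adjusted p under 0.05, an adjusted p under 0.10 and an unadjusted p under 0.01, beside 14 and 9, 540 and 816, and 508 and 766. With all 36 tumors in 1 fit they were 0 and 0, 0 and 1, and 163 and 212. With the methods' t-test they were 0 and 0, 0 and 0, and 277 and 374. With the RNA integrity covariate they were 0 and 0, 0 and 0, and 180 and 205. Array weights gave 1493 and 1632, 2095 and 2165, and 1374 and 1517. Counting every probe set gave 28 and 36, 861 and 1562, and 821 and 1500. Repeated quantile normalization gave 5 and 1 at an adjusted p under 0.05, the mean of probe sets 9 higher, and leaving out the dimmest genes 25 and 20. Leaving out 1 tumor gave 0 to 1014 and 0 to 1194, 0 to 1521 and 0 to 1672, and 177 to 1054 and 201 to 1238. At an adjusted p under 0.10 there were 4 and 0 without control 2, 0 and 0 without control 3, 1521 and 1672 without control 1, and 5 and 1 without BPTF KD tumor 1. Without BPTF KD tumors 2, 4 and 5 there were 17 and 16, 18 and 8, and 7 and 3, and without tumor 3 there were 324 and 526. The replicate block gave 7 and 0, 20 and 4, and 359 and 497, but the numbers do not pair the tumors (correlations of same-numbered deviations 0.27, -0.31 and 0.01).

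Bptf differed by -1.085 in the fit over 36 tumors and in the methods' t-test, by -1.10 with the replicate block and by -0.84 with the covariate, none at an adjusted p under 0.10, and by -1.335 to -0.78 without 1 tumor. The test between hosts gave 0 to 6 genes without 1 tumor and 1 with the mean of probe sets, and that between lines 0 to 1 and 1 with all 36 tumors. The cause of these changes was not tested. No named gene changed sign under the alternatives counted per gene, which included the mean of probe sets but not each probe set alone. Single other probe sets of some named genes did have the opposite sign, as given above. Most named genes lost the adjusted threshold.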

Other observations

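Some gene groups were not described above. Of 23 dendritic cell genes 4 rose and Tcf4 fell. Batf3, a factor of cross-presenting dendritic cells, rose by 0.94 (6.98, 7.35 and 6.91 in the controls against 7.41 to 8.43), Irf8, another factor of this lineage, by 0.69, and the surface peptidase Dpp4 by 0.94. Of 17 complement genes 3 rose and none fell, among them factor B (Cfb) by 1.19 and C2 by 0.44. Of 15 ligands and adhesion partners of NK cell receptors 3 rose and none fell: Vcam1, the endothelial adhesion molecule, by 0.86, Cd48 by 0.77 and Clec2d by 0.54. No complement gene passed an unadjusted p under 0.01 without control 2.

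Among sphingolipid genes 4 of 26 fell (15.4%, beside 6.58% of all genes) and 1 rose (3.85%, beside 4.36%). Sphk1, which makes sphingosine 1-phosphate, fell by 0.88, from 10.76, 10.50 and 10.54 in the controls to between 9.08 and 10.14, and by 0.92 without control 2. Its receptor S1pr1 fell by 0.47 (7.26, 7.29 and 7.09 against 6.60 to 6.81). In both genes the groups did not overlap and control 2 lay near another control.

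By chromosome, 43 of 597 measured genes of chromosome 17, which holds the mouse MHC, rose (7.2%, beside 4.36% of all genes). On chromosome 6, which holds the NK gene complex and the GIMAP genes, 44 of 726 rose (6.06%), and on chromosome 16, 22 of 414 (5.31%). On chromosome 12, 37 of 384 fell (9.64%, beside 6.58% of all genes), and on chromosome 5, 64 of 771 (8.3%). These shares were not tested.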
